A study of Canis lupus familiaris with 13 samples.

Results

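The 200 most abundant transcripts of canine skeletal muscle that the gene annotation classes as long non-coding RNA (lncRNA) were followed through 13 RNA sequencing libraries. They were taken from 7077 rows with the biotype lncRNA in a table of 30951 genes, by the mean of the normalized read count over all 13 libraries. The libraries came from biopsies of a thigh muscle, the biceps femoris, of 4 wild-type dogs aged 9 to 10 months. The insulin-stimulated libraries were sample 1 (n = 4, dogs 1 to 4), sample 2 (n = 4, dogs 1 to 4) and sample 3 (n = 2, dogs 1 and 2), and the basal libraries were sample 0 (n = 3, dogs 2, 3 and 4). The labels do not say what the sample number stands for, dog 1 had no basal library, and the dose and duration of insulin were not stated in the labels used here. Total counts ranged from 45200416 to 81948641 per library. The design asks whether insulin, or the sample number, changes expression within a dog, and it also allows the dogs to be compared.

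An lncRNA is a transcript, longer than small RNAs such as microRNAs, that is not known to be translated. Some act in the nucleus on chromatin or on neighbouring genes, some act in the cytoplasm on other RNAs, and several are known in mammals to take part in the differentiation of muscle cells. Many are transcribed at low levels and are poorly conserved between species, so that most canine lncRNAs are known only by an identifier from automatic annotation. Insulin raises glucose uptake and anabolic metabolism in skeletal muscle and changes the expression of many protein-coding genes there.

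Not every row was non-coding by name. Of the 200 members, 13 carried a gene symbol, and in RefSeq all 13 of these symbols belong to protein-coding genes: BANF1, JUN, MAGED1, HOXD8, AMIGO1, YPEL5, FGF13, GNG7, SLC23A2, MMRN1, RUNX1T1, UBE2T and TNIP2. None of these symbols was on another row of the table. The remaining 187 members had an identifier only, and no name or role is given to them here. Of 39 symbols of lncRNAs known from mammals, 0 were on a row of the table. The 200 members are therefore described as rows with the biotype lncRNA, and those with and without a symbol are kept apart. The symbol rows held 24.4% of the members' normalized counts. The library kit does not mark strand, so reads of a gene and of an overlapping antisense transcript cannot be told apart for any member. Sequences and genome positions of the members were not analysed here.

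Expression of this class was concentrated in a few rows. ENSCAFG00000032829 alone took 16.4% of all normalized counts of lncRNA rows, with a mean of 20602 normalized counts per library. BANF1, a small protein that binds DNA and the nuclear lamina, was second at 11721 and brought the share to 25.8%. ENSCAFG00000046221 had 4506, JUN, a subunit of the transcription factor AP-1, had 4054, and MAGED1, a member of the MAGE family of regulatory proteins, had 3446. The 10 highest rows held 45.2% and all 200 members held 91.9%. The members at the end of the list were ENSCAFG00000045781 with 56.72 and ENSCAFG00000043131 with 56.25 mean normalized counts, and the first rows left out were ENSCAFG00000043017 with 56.21 and ENSCAFG00000023156 with 56.16. These values chose the members and are given as a description. Normalized counts do not correct for length, so a long transcript ranks higher than a short one present in as many copies.

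**Figure D1:**
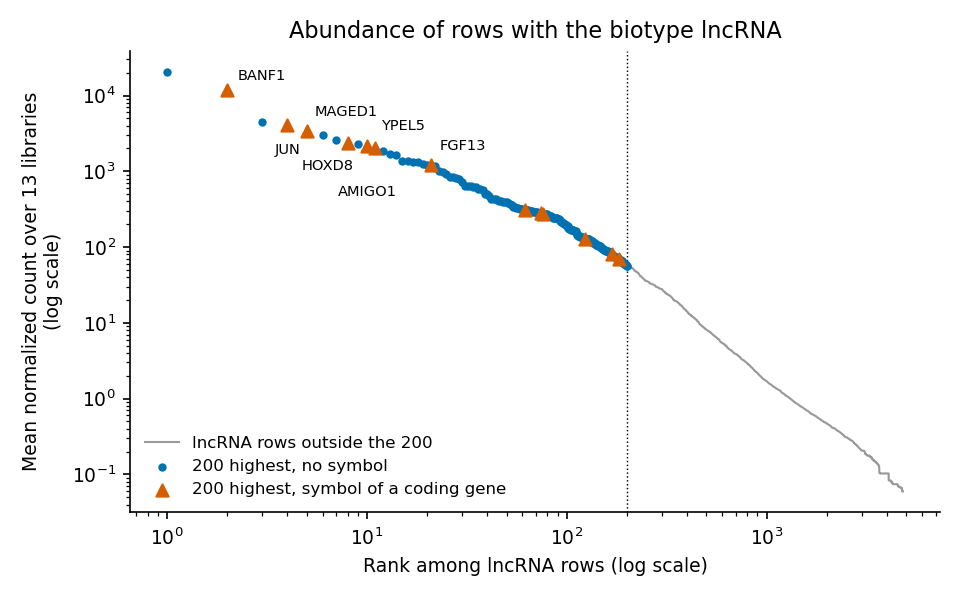
Mean normalized read count per library (log axis) of the 200 members against their rank, with the rows that carry a symbol set apart from those with an identifier only. ENSCAFG00000032829 at 20602 and BANF1 at 11721 stand above the rest, and the points of the members end at 56.25. The grey line continues through the lncRNA rows outside the 200.

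All 200 members passed the filter on low counts, which kept 14629 genes and 659 lncRNA rows. Of the 200, 198 had counts in every library. The median member had a mean of 189 normalized counts, against 292 for the median tested gene, and 71 of 200 members lay above the median tested gene by mean log2 CPM. CPM are counts scaled to the size of the library, adjusted here by the trimmed mean of M values (TMM). Together the members took 0.196% ± 0.0191 of a library's counts (SD, n = 13), ranging from 0.169% to 0.225%. The share was 0.197% ± 0.0199 in insulin libraries (SD, n = 10) and 0.192% ± 0.0195 in basal libraries (SD, n = 3), and the groups overlapped. The highest shares were those of samples 1 and 2 of dog 1, at 0.223% and 0.225%, and sample 3 of that dog had 0.207%. Dog 1 has no basal library. In the dogs with a basal library the insulin libraries averaged 0.188% ± 0.0151 (SD, n = 7), below the basal mean. Dog 2 had 0.172%, 0.178% and 0.202% with insulin against 0.198% basal, and dog 3 had 0.206% and 0.199% with insulin against 0.209% basal. Dog 4 had 0.169% and 0.186% with insulin against 0.171% basal, so the direction differed between dogs.

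The median SD of log2 CPM over the 13 libraries was 0.45 for the members and 0.47 for all tested genes. It was 0.36 for tested rows at or above the level of the member ranked 200 and 0.86 for the tested lncRNA rows of lower abundance. The members thus varied more than the rows at or above that level and less than the lncRNA rows below it. The steadiest was ENSCAFG00000035325, with an SD of 0.16 and CPM from 3.05 to 4.21. ENSCAFG00000046221, the third most abundant, was among the 5 steadiest and lay between 57.2 and 98.6 CPM. In all, 28 members differed by less than a factor of 2 between their highest and lowest library and 24 by more than a factor of 10. The most variable was ENSCAFG00000048716, with an SD of 2.45, whose 2 lowest libraries held 0 counts. Over the 19900 pairs of members the median Pearson r of log2 CPM was 0.02 across the 13 libraries, and 16 pairs exceeded 0.9. The highest was 0.963 between ENSCAFG00000041069 and ENSCAFG00000034998, and the row SLC23A2 reached 0.955 with ENSCAFG00000045499. Without sample 2 of dog 1 these values were 0.961 and 0.907, and 11 pairs exceeded 0.9. These pairs share libraries and dogs, and r is given as a description of them.

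Sample 2 of dog 1 stood apart from the other libraries. ACTA1, the skeletal muscle actin, took 18.4% of its counts, and over all tested genes its mean correlation with the other libraries was the lowest, at 0.943. It held the highest value for 27.5% of the members and for 19.4% of all tested genes. It also held the lowest value for 17.5% of the members, against 20.8% of all tested genes. Sample 0 of dog 2 held the highest value for 13.5% of the members and 5.76% of tested genes, and sample 0 of dog 3 for 6.5% of the members and 15.7% of tested genes.

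**Figure D2:**
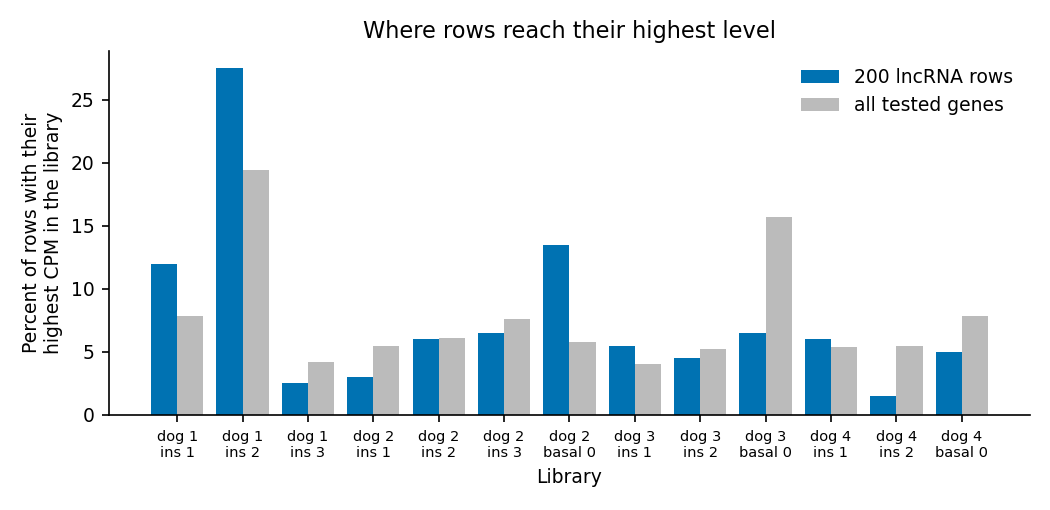
Share of rows (percent) whose highest CPM lay in each of the 13 libraries, for the 200 members and for all tested genes. Libraries are grouped by dog, with the insulin libraries of a dog to the left of its basal library. Sample 2 of dog 1 leads in both, with 27.5% of the members and 19.4% of tested genes.

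The tissue label was set against marker genes of muscle and of other cells that a biopsy can hold. The 10 muscle markers summed to between 256669 and 423394 CPM in insulin libraries and between 252415 and 328071 CPM in basal libraries. All other lists were far lower, and the highest was that of 5 fibroblast markers, with 300 to 1138 CPM in insulin libraries and 214 to 2793 CPM in basal libraries. The 5 endothelial markers summed to between 60.02 and 266 CPM in insulin libraries and between 79.0 and 298 CPM in basal libraries. Of the 6 red cell markers none averaged 1 CPM, and their sum was 0.750 to 2.14 CPM in insulin libraries and 1.82 to 3.93 CPM in basal libraries. No marker in any list passed the test for insulin against basal. The fitted log2 fold change was negative for 5 of 5 fibroblast, 4 of 4 tested neutrophil and 3 of 3 tested red cell markers. It was also negative for 4 of 5 macrophage, 3 of 4 tested adipocyte and 2 of 3 tested lymphocyte markers and the 1 tested keratinocyte marker. It was positive for 4 of 5 endothelial and 6 of 10 muscle markers, and the median over all tested genes was -0.001. Among the fibroblast markers, the collagen gene COL1A1 averaged 40.8 CPM with insulin and 91.0 CPM basal, and COL1A2 averaged 182 CPM with insulin and 354 CPM basal. The fibroblast sum was highest in the basal library of dog 3, at 2793 CPM, and lowest in that of dog 4, at 214 CPM. Its median was 619 CPM with insulin and 636 CPM basal, so the medians did not show the difference seen in the means. The part of these cell types in the members' values was not tested. In whole tissue, fewer cells of a type and less RNA per cell cannot be told apart.

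Insulin against basal changed no member past the threshold. In a model with the dog as a block (edgeR quasi-likelihood test, Benjamini-Hochberg adjustment over 14629 genes, threshold 0.05), 0 of 200 members were called, where 20 genes or 0.137% were called over the whole table. Leaving out 1 library kept the members at 0 and moved the count over all genes to between 7 (without sample 0 of dog 4) and 28 (without sample 2 of dog 1). At an unadjusted p under 0.05 there were 12 members, or 6.0%, against 603 genes, or 4.12%. DESeq2 called 1 member, ENSCAFG00000042507, and 0.409% of the genes it tested, and edgeR without the filter on low counts called 3 members and 0.555%. The log2 fold change of insulin over basal was positive for 108 members and negative for 92, with a median of 0.04, against -0.00 for all tested genes. It lay between -0.43 and 0.45 for the central 90% of the members, and its median standard error (SE) was 0.28. The median size of the log2 fold change was 0.13 for the members and 0.17 for all tested genes, and it exceeded 1 for 6 members, or 3.00%, against 5.17% of tested genes. A count of 0 does not show that the members were unaffected, since a change that is small beside the median SE of 0.28 would not be called.

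**Figure D3:**
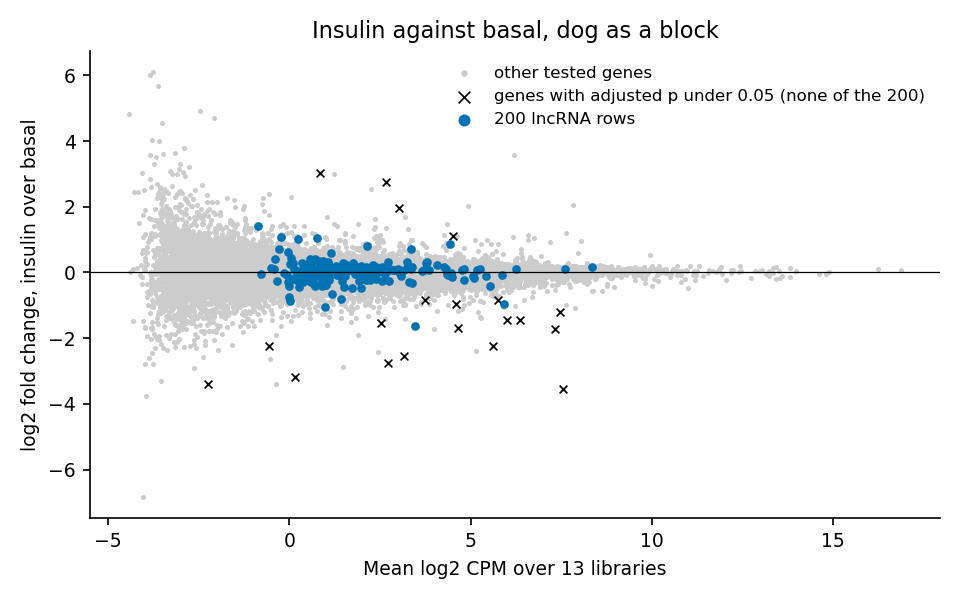
Log2 fold change of insulin over basal against the mean log2 CPM, for the 200 members and for all tested genes. The members lie around 0, from -1.64 to 1.41, and none passes the adjusted threshold.

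The members with the lowest p are given with their libraries. ENSCAFG00000042507 had a lowest value of 3.41, a median of 4.61 and a highest value of 7.91 CPM over the 10 insulin libraries, and 3.03, 2.46 and 3.83 CPM in the basal libraries of dogs 2, 3 and 4. The groups overlapped, but within each of the 3 dogs with a basal library its insulin mean was above its basal value. Its mean was 5.10 ± 1.51 CPM with insulin and 3.11 ± 0.69 CPM in the basal state (SD, n = 10 and n = 3), a log2 fold change of 0.81 ± 0.22 (SE) with an edgeR adjusted p of 0.344. Its adjusted p was 0.0347 by DESeq2 and ranged from there to 1 over the alternatives.

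ENSCAFG00000046230, rank 15, had the same direction. It had a lowest value of 12.3, a median of 26.2 and a highest value of 48.9 CPM over the insulin libraries, and 10.5, 14.9 and 13.3 CPM in the basal libraries of dogs 2, 3 and 4. The only insulin library within the basal range was sample 1 of dog 2, at 12.3 CPM. The means were 26.7 ± 10.2 CPM with insulin and 12.9 ± 2.23 CPM basal (SD, n = 10 and n = 3), and the log2 fold change of 0.87 ± 0.24 (SE) had an edgeR adjusted p of 0.353, with 3 of 3 dogs higher. Without the filter on low counts the adjusted p was 0.0170, and over the alternatives it reached 1.

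Lower values with insulin were found for ENSCAFG00000035164 and ENSCAFG00000046219. ENSCAFG00000035164 was the only member whose groups did not overlap. It ran from 0.595 over a median of 0.936 to 1.26 CPM with insulin and stood at 1.59, 1.28 and 1.48 CPM in the basal libraries of dogs 2, 3 and 4. Its log2 fold change was -0.85 ± 0.27 (SE) and its edgeR adjusted p 0.604, with 3 of 3 dogs lower. Among all tested genes 0.608% were separated in this direction, against 1 of 200 members, and 0.321% in the opposite direction, against 0 of 200 members. ENSCAFG00000046219 ran from 1.03 over a median of 1.58 to 3.09 CPM with insulin and stood at 1.99, 4.69 and 5.61 CPM in the basal libraries of dogs 2, 3 and 4. The basal library of dog 2 lay inside the insulin range, and 2 of 3 dogs were lower with insulin (log2 fold change -1.05 ± 0.34 SE, edgeR adjusted p 0.678). ENSCAFG00000049644, of next lowest p, averaged 1.40 ± 0.448 CPM with insulin and 0.761 ± 0.437 CPM basal (SD, n = 10 and n = 3) and was higher in 3 of 3 dogs (log2 fold change 1.02 ± 0.40 SE, edgeR adjusted p 0.960). The log2 fold change of ENSCAFG00000049644 ran from 0.74 without sample 0 of dog 3 to 1.73 without sample 0 of dog 2, and that of ENSCAFG00000046219 from -1.56 without sample 0 of dog 2 to -0.67 without sample 0 of dog 4, with no call in any of these fits.

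**Figure D4:**
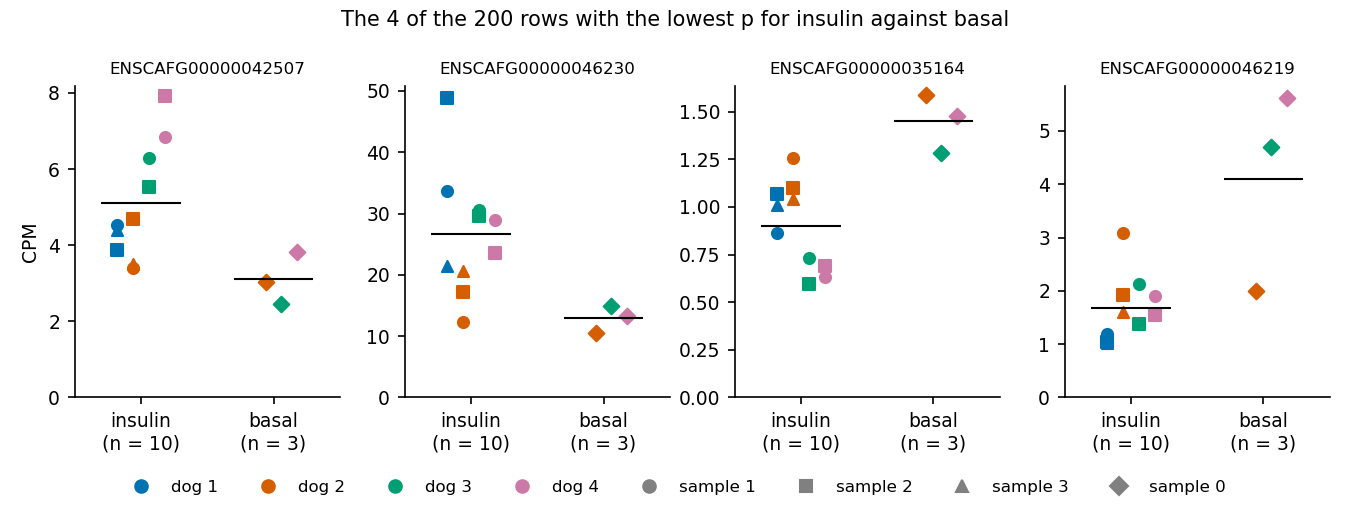
CPM in each library of the members with the lowest p for insulin against basal, insulin libraries to the left and basal libraries to the right; colours mark the dog, shapes the sample number and lines the group means. ENSCAFG00000042507 and ENSCAFG00000046230 average 5.10 and 26.7 CPM with insulin against 3.11 and 12.9 CPM basal, and ENSCAFG00000035164 is separated, with 1.26 CPM or less with insulin and 1.28 CPM or more in the basal state.

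The symbol rows are described by what the genes of that symbol do. Whether such a row holds reads of the coding gene, of an antisense transcript or of a readthrough transcript cannot be told from the counts, so these roles are background on the symbols and the values are those of the rows. Among the regulators of transcription, JUN ran from 41.5 over a median of 54.4 to 84.7 CPM with insulin and stood at 231, 73.3 and 34.2 CPM in the basal libraries of dogs 2, 3 and 4. The basal library of dog 2 was far above every other library, and the log2 fold change of -0.96 ± 0.42 (SE; edgeR adjusted p 1) became 0.19 without it. By edgeR without the filter on low counts the adjusted p of JUN was 0.000691, whereas by DESeq2 it was 0.719. HOXD8, a homeobox transcription factor, averaged 39.9 ± 12.9 CPM with insulin and 39.7 ± 11.7 CPM basal (SD, n = 10 and n = 3). RUNX1T1, a transcriptional corepressor, averaged 1.96 ± 0.86 CPM with insulin and 3.06 ± 2.00 CPM basal. Of these, JUN alone had an unadjusted p under 0.05, and no symbol row was called.

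Other symbols are those of genes of the nucleus, protein turnover, signalling and the cell surface. BANF1 averaged 206 ± 50.2 CPM with insulin and 178 ± 19.2 CPM basal, and YPEL5, a subunit of a ubiquitin ligase complex, averaged 33.0 ± 7.80 CPM with insulin and 38.2 ± 2.52 CPM basal. FGF13, a fibroblast growth factor that stays inside the cell and binds sodium channels, had 21.0 ± 4.68 CPM with insulin and 20.3 ± 3.73 CPM basal, and GNG7, a gamma subunit of G proteins, had 5.15 ± 0.87 CPM with insulin and 5.75 ± 1.48 CPM basal. AMIGO1, a cell adhesion protein of neurons, lay between 22.2 and 51.1 CPM in 12 libraries and at 7.07 CPM in sample 2 of dog 1. MMRN1, a multimeric protein of platelets and endothelium, was lowest in the same library, at 0.060 CPM, and highest in sample 3 of the same dog, at 16.0 CPM. SLC23A2, a transporter of vitamin C, was also lowest there, at 1.57 CPM, with a median of 4.93 CPM over the 13 libraries. The 13 symbol rows had 4 positive and 9 negative log2 fold changes, from -0.96 to 0.23, and none passed the threshold. This split depended on sample 0 of dog 2. Without that library JUN (0.19), FGF13 (0.11), GNG7 (0.07) and SLC23A2 (0.08) became positive and TNIP2 (-0.41) became negative, while the other symbol rows kept their sign.

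The member with the lowest log2 fold change was uneven between libraries. ENSCAFG00000049209 ran from 0.738 over a median of 11.2 to 38.3 CPM with insulin and stood at 23.2, 41.2 and 25.6 CPM in the basal libraries of dogs 2, 3 and 4. Its log2 fold change was -1.64 ± 0.75 (SE, edgeR adjusted p 1), and it was not called with the filter on low counts. By edgeR without that filter its adjusted p was 2.72e-11, whereas by DESeq2 the adjusted p was 0.9999. Its lowest value was again in sample 2 of dog 1, and without that library the log2 fold change was also -1.64 (edgeR adjusted p 0.425). Dog 1 has no basal library, so leaving out one of its libraries could hardly move this value. Over all fits without 1 library the log2 fold change of ENSCAFG00000049209 ran from -1.94, without sample 0 of dog 2, to -1.38.

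The sample numbers gave the same picture, and no member was called in any of the 5 comparisons among them by edgeR or by DESeq2. DESeq2 called 0.305% to 0.571% of the genes it tested in these comparisons, and 0 of 200 members is near such shares. For sample 1 against sample 0, edgeR called 0% of tested genes, and an unadjusted p under 0.05 was reached by 2.5% of the members and 2.99% of tested genes. For sample 2 against sample 0, 0.0479% of tested genes were called, and 3.5% of the members against 4.95% of tested genes had such a p. Both comparisons share the basal libraries with each other and with insulin against basal, and ENSCAFG00000046230, ENSCAFG00000042507 and ENSCAFG00000035164 were among the 5 lowest p in each. ENSCAFG00000045994 was the member highest in sample 1 relative to sample 0 among these 5, with a mean of 3.19 CPM against 0.758 CPM, a log2 fold change of 1.29 and an edgeR adjusted p of 1. The log2 fold change of ENSCAFG00000045994 was 0.86 without sample 0 of dog 4. Its sample 1 mean includes dog 1, at 6.99 CPM, which has no sample 0. Dogs 2, 3 and 4 had 1.03, 2.25 and 2.47 CPM in sample 1 against 0.895, 0.871 and 0.508 CPM in sample 0. ENSCAFG00000045851 was lower in sample 1, with 2.47 CPM against 4.22 CPM in sample 0, a log2 fold change of -0.72 and an edgeR adjusted p of 1.

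Sample 2 against sample 1 is the comparison with all 4 dogs on both sides. Calls by edgeR covered 0% of tested genes and no member, and an unadjusted p under 0.05 was reached by 3.0% of the members and 3.38% of tested genes. The most abundant member, ENSCAFG00000032829, had 879, 400, 352 and 284 CPM in sample 2 of dogs 1 to 4, against 370, 209, 283 and 261 CPM in sample 1. It was higher in sample 2 in 4 of 4 dogs (479 against 281 CPM on average, log2 fold change 0.66 ± 0.24 SE, edgeR adjusted p 0.902). The highest of these values came from sample 2 of dog 1, and without that library the log2 fold change was 0.36 (edgeR adjusted p 1). ENSCAFG00000047367 was lower in sample 2 in 4 of 4 dogs, with a mean of 14.8 CPM against 29.0 CPM in sample 1 (log2 fold change -1.03 ± 0.33 SE, edgeR adjusted p 0.902), and the log2 fold change was -0.65 without sample 2 of dog 1 (edgeR adjusted p 1).

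Sample 3 rests on 2 libraries. Against sample 1, 4.5% of the members and 3.93% of tested genes had an unadjusted p under 0.05, and edgeR called 0% of tested genes. Against sample 2 the shares were 4.0% and 5.17%, again with 0% called. ENSCAFG00000044366 had the lowest p in both, with 4.84 and 7.63 CPM in sample 3 of dogs 1 and 2, against 1.97 and 3.22 CPM in sample 2 and 1.80 and 4.58 CPM in sample 1 of the same dogs. The log2 fold change was 1.17 ± 0.31 (SE, edgeR adjusted p 0.946) against sample 2 and 1.02 ± 0.31 (SE, edgeR adjusted p 0.989) against sample 1. UBE2T, a ubiquitin-conjugating enzyme of DNA repair, averaged 0.902 CPM in sample 3 against 1.90 CPM in sample 2 (log2 fold change -1.29 ± 0.39 SE, edgeR adjusted p 0.946). The highest sample 2 value, 2.75 CPM, was in dog 1, and without that library the log2 fold change was -0.98 (edgeR adjusted p 0.606).

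Expression of 17 members differed between the dogs. A test of all differences among the 4 dogs, in the model with sample number (edgeR quasi-likelihood F test, adjusted over 14629 genes), called 17 of 200 members, or 8.50%, against 458 genes, or 3.13%, of the whole table. An unadjusted p under 0.05 was reached by 64 members, or 32.0%, against 15.6% of tested genes. Among the members with an identifier only, 16 of 187 were called (8.56%), and among the symbol rows 1 of 13, HOXD8. The share was 3.05% among the tested lncRNA rows of lower abundance, 3.62% among protein-coding rows at or above the level of the member ranked 200, and 3.72% among all tested rows at or above it. Calls were spread over the ranks, with 5, 3, 3 and 6 in each successive group of 50 members. The mean that chose the members covers the same libraries, so a row that is high in a single dog could enter the list through that dog. This limit holds for every share of members between dogs given here and below. Ranking lncRNA rows by the median in place of the mean left 192 of the members in the list and gave 7% called. These shares are descriptions of lists of unequal size. A dog and any handling shared by its libraries cannot be told apart.

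The 17 calls depended on which libraries were in the fit. DESeq2 called 42 members, or 21%, among them all 17, and 5.07% of the genes it tested. Without the filter on low counts edgeR called 27 members, or 13.5%, and 3.15% of tested genes. Leaving out 1 library at a time gave 10 to 19 members, and the lowest counts came without sample 0 of dog 2 and without sample 1 of dog 4, at 10 members each, against 1.49% and 1.54% of tested genes. Counts of 11 came without sample 1 of dog 1, sample 1 of dog 3 or sample 2 of dog 4. Without sample 2 of dog 1, the library that stood apart, there were 19. Calls over all genes moved as well, with 4.29% of tested genes without sample 2 of dog 1 and 1.45% without sample 1 of that dog. Leaving out a whole dog gave 7 members without dog 2 (3.5%, against 0.521% of tested genes) and 7 without dog 4 (3.5%, against 1.31%). It gave 10 members without dog 3 (5%, against 1.16%) and 19 without dog 1 (9.5%, against 3.55%). Of the 17, 8 were called in every fit without 1 library: ENSCAFG00000040479, ENSCAFG00000048716, ENSCAFG00000049304, ENSCAFG00000049054, ENSCAFG00000044366, ENSCAFG00000031437, ENSCAFG00000047081 and ENSCAFG00000050026.

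**Figure D5:**
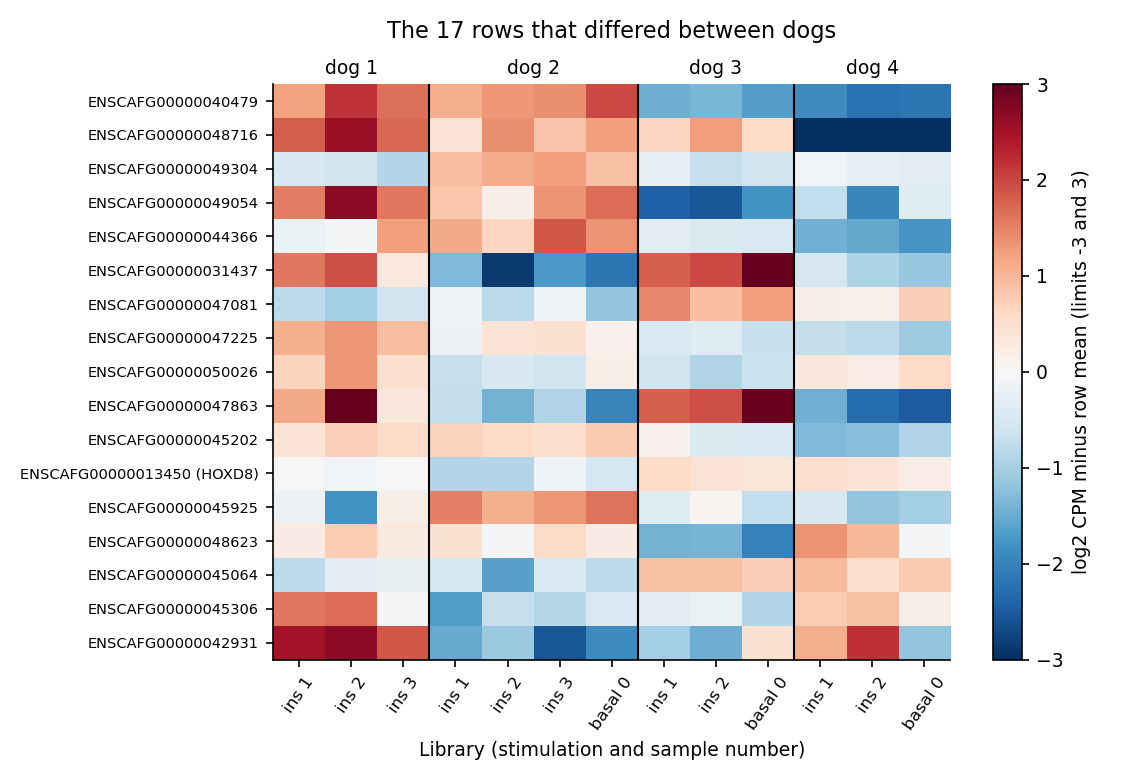
Level in each of the 13 libraries of the 17 members that differed between dogs, as the difference in log2 CPM from the mean of the row, with libraries grouped by dog and colours limited to differences of 3 in either direction. Most rows keep the same colour within a dog, and ENSCAFG00000048716 is lowest in dog 4, with 0, 0 and 2 raw counts.

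Several members were high in dogs 1 and 2 and low in dogs 3 and 4. ENSCAFG00000040479 had 4.83, 9.53 and 6.63 CPM in samples 1, 2 and 3 of dog 1 and 8.30, 4.46, 5.16 and 5.53 CPM in samples 0 to 3 of dog 2. It had 0.635, 0.728 and 0.780 CPM in samples 0, 1 and 2 of dog 3 and 0.439, 0.540 and 0.412 CPM in those of dog 4. No library of dogs 1 and 2 came near those of dogs 3 and 4, and its edgeR adjusted p of 0.000308 was the lowest among the members. ENSCAFG00000049054 averaged 10.99 ± 5.38 CPM in dog 1 (n = 3) and 5.79 ± 2.45 CPM in dog 2 (n = 4), against 0.544 ± 0.169 CPM in dog 3 and 1.43 ± 0.709 CPM in dog 4 (SD, n = 3 each; edgeR adjusted p 0.00188). ENSCAFG00000047225 averaged 10.7, 5.79, 3.48 and 2.69 CPM in dogs 1 to 4 (edgeR adjusted p 0.00601). ENSCAFG00000044366, the member of lowest p for sample 3, averaged 2.87, 5.19, 1.54 and 0.671 CPM (edgeR adjusted p 0.0035), and ENSCAFG00000045202 averaged 3.67, 3.86, 2.12 and 1.08 CPM (edgeR adjusted p 0.0166). All libraries of dogs 1 and 2 lay above all of dogs 3 and 4 for 5 members, all of them called, and for 1.06% of tested genes. Across the 13 libraries r between ENSCAFG00000040479 and ENSCAFG00000045202 was 0.915, a value that follows the dogs.

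The opposite split held HOXD8. It had 37.8, 35.6 and 38.3 CPM in samples 1, 2 and 3 of dog 1 and 26.4, 20.5, 20.5 and 35.1 CPM in samples 0 to 3 of dog 2. It had 48.4, 56.0 and 51.3 CPM in samples 0, 1 and 2 of dog 3 and 44.2, 54.6 and 49.2 CPM in those of dog 4 (edgeR adjusted p 0.0185). Dogs 3 and 4 lay above dogs 1 and 2 in every library, as they did for ENSCAFG00000045064 (0.960, 0.744, 2.34 and 2.24 CPM in dogs 1 to 4, edgeR adjusted p 0.0344) and ENSCAFG00000047081 (7.61, 9.29, 30.4 and 17.2 CPM, edgeR adjusted p 0.00503). This split was seen for 5 members in all and for 0.930% of tested genes.

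Other members were set apart in a single dog. ENSCAFG00000048716 was nearly absent from dog 4, with 0, 0 and 2 counts in samples 0, 1 and 2, against 170, 295 and 160 counts in samples 1, 2 and 3 of dog 1. The ratio of summed counts, dog 1 over dog 4 and corrected for library size, was 233, with an exact 95% interval from 64.3 to 1930 that covers counting error only (edgeR adjusted p 0.000537). ENSCAFG00000049304 was high in dog 2, with 17.6, 18.3, 20.6 and 22.3 CPM in samples 0 to 3, against 5.14 to 9.00 CPM in all libraries of dogs 1, 3 and 4 (edgeR adjusted p 0.00134). ENSCAFG00000045925 averaged 4.63 CPM in dog 2, against 1.33, 1.39 and 0.937 CPM in dogs 1, 3 and 4 (edgeR adjusted p 0.0244). ENSCAFG00000048623 averaged 0.291 CPM in dog 3, against 1.30, 1.19 and 1.76 CPM in dogs 1, 2 and 4 (edgeR adjusted p 0.0305). One dog stood apart from every other library for 39 members, or 19.5%, against 9.49% of tested genes, and 11 of the 17 called members were among the 39.

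Further groupings crossed the dogs. ENSCAFG00000031437 had 2.07 ± 1.03 CPM in dog 1 and 4.09 ± 2.11 CPM in dog 3 (SD, n = 3 each), against 0.175 ± 0.0887 CPM in dog 2 (n = 4) and 0.407 ± 0.100 CPM in dog 4 (n = 3; edgeR adjusted p 0.0044). ENSCAFG00000047863 followed the same split, with 2.32 and 2.86 CPM in dogs 1 and 3 against 0.222 and 0.111 CPM in dogs 2 and 4 (edgeR adjusted p 0.0154). Dogs 1 and 4 were high for ENSCAFG00000050026, the member ranked 6, with 74.0, 117 and 65.3 CPM in dog 1 and 70.7, 59.3 and 54.5 CPM in dog 4, against 24.9 to 53.0 CPM in all libraries of dogs 2 and 3 (edgeR adjusted p 0.0062). ENSCAFG00000045306 did likewise, with 14.2 and 9.13 CPM in dogs 1 and 4 against 3.23 and 4.34 CPM in dogs 2 and 3 (edgeR adjusted p 0.0366). The dog 1 and 3 split was seen for 0.376% of tested genes and the dog 1 and 4 split for 0.294%, against 4 members each. The 2 splits left, dogs 2 and 4 or dogs 2 and 3 above the others, were seen for no member and for 0.308% and 0.260% of tested genes. The remaining call, ENSCAFG00000042931, averaged 3.66, 0.187, 0.490 and 1.65 CPM in dogs 1 to 4 (edgeR adjusted p 0.0392). Just outside the threshold were ENSCAFG00000032925 (edgeR adjusted p 0.0529) and ENSCAFG00000041514 (edgeR adjusted p 0.0530).

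Leaving out ENSCAFG00000048716, the ratio of the highest to the lowest dog mean was 2.03 to 25.9 over the 16 other calls, with a median of 4.67. These calls were made on the same differences, so the ratios are a description of their size. Dog 1 was highest for 7 of the 17, dog 3 for 5, dog 2 for 4 and dog 4 for 1. Dog 4 was lowest for 7, dog 2 for 5, dog 3 for 3 and dog 1 for 2. Muscle markers differed between dogs as well. The 10 muscle markers summed to 328071 to 374039 CPM in dog 4 and to 252415 to 275496 CPM in dog 3, without overlap, and 2 of the 10 were called between dogs, as were 1 neutrophil and 1 macrophage marker. The part of these markers in the members' differences was not tested.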

How the data were processed

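RNA from flash-frozen biopsies was amplified with SMART-Seq v4, tagged with Nextera XT and sequenced on a NovaSeq instrument, per the labels' protocols. The submitters' processing notes name Bowtie 0.12.2 and CanFam 3.1. Which program counted reads, with which annotation and strand setting, is not given in the sources used here. Raw counts per gene were deposited by the authors with a normalized signal, which equalled the raw counts divided by median-of-ratios size factors when checked. The signal ranked the lncRNA rows, and the counts entered all tests.

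Tests used R 4.3.3 and edgeR 4.0.16 (filterByExpr, TMM, robust quasi-likelihood fits) on all 13 libraries with the dog as a block, and adjusted p by the Benjamini-Hochberg method over 14629 genes, with a threshold of 0.05. Dog 1 entered insulin against basal only through the spread. Once the dog was in the model, its insulin libraries counted as independent, so p-values rest on libraries, and this comparison on the 3 dogs with a basal library. Shares within dogs and correlations without sample 2 of dog 1 were added after seeing the data. The standard error was the log2 fold change divided by the root of F. Log2 CPM used a prior count of 2. Scripts were tested on simulated data.

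The dog numbers pair the libraries because they name the same animal. Deviations from group means correlated with a median r of 0.17 between libraries of 1 dog (15 pairs) and -0.066 between dogs (47 pairs). For 12 of 13 libraries the highest r was with a library of their own dog. Replicates differed by far more than counting error (chi-square per gene 58.3 to 888).

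The members, marker lists and tests were chosen with earlier results of these data known. Members named were drawn from the 15 highest by rank, all symbol rows and the 5 lowest p in each comparison between conditions. They were also drawn from the 8 of lowest p between dogs, those at the end of the list, and the 5 lowest and 5 highest by SD. Not every row of these lists is named, and the rows left out include some of the 15 highest and some of the 5 lowest p. A few of those chosen by SD are given only by their range. The other calls between dogs, ENSCAFG00000049209, the pairs of highest correlation and the rows beside a threshold were chosen after their values were seen. Symbols were matched to RefSeq, assembly UU_Cfam_GSD_1.0, for biotype only. Alternatives were DESeq2 1.42.0, other scaling, no filter, no block, and leaving out libraries or dogs.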

Additional observations from a re-analysis of the deposited data

Results flagged for a closer look

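Samples 1 and 2 have 4 libraries each, so a single library can be set against the other 3. A library was taken as standing apart where its gap to the nearest value, divided by the range, both on the log2 CPM scale, exceeded Dixon's critical value of 0.829. This was checked for 108 sets of 4 values among the members of the lists used for naming. Of these, 7 stood apart, where chance gives about 1 in 20.

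In sample 2, dog 1 was the library apart for 4 rows. AMIGO1 had 7.07 CPM there, against 38.1 to 51.1 CPM in the other dogs, and SLC23A2 had 1.57 CPM, against 4.61 to 5.43 CPM. ENSCAFG00000035374 had 5.72 CPM there, against 4.05 to 4.27 CPM, and ENSCAFG00000043131 had 1.11 CPM, against 0.786 to 0.799 CPM. This is the library whose share of ACTA1 was highest, and the part of that in these values was not tested. In sample 1, YPEL5 had 42.5 CPM in dog 3, against 29.3 to 30.4 CPM in the other dogs. ENSCAFG00000046230 had 12.3 CPM in sample 1 of dog 2, against 29.0 to 33.6 CPM in the other dogs. ENSCAFG00000048342 had 7.88 CPM in sample 1 of dog 1, against 3.37 to 3.72 CPM in the other dogs.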

How the results depend on the processing

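For insulin against basal, 0 members were called by edgeR, 1 by DESeq2 (ENSCAFG00000042507) and 3 without the filter on low counts: JUN (adjusted p 0.000691), ENSCAFG00000046230 (0.0170) and ENSCAFG00000049209 (2.72e-11). Over all genes these settings called 20, 103 and 140. The cause was not tested. Without the replicate block of dogs, 0 members were called in each of the 6 comparisons between conditions. In that setting 0.0423% of tested genes were called for insulin against basal and 0% in the other comparisons. With counts summed per dog, 0 members and 0.0188% of tested genes were called for insulin against basal. Of 711 refits of 32 log2 fold changes, 705 kept direction and side of the threshold, 4 newly passed it and 2 reversed. The 32 were mainly the 5 of lowest p in each comparison, none called in the main fit. The refits share most libraries, so these counts say little on robustness. Both reversals were of JUN. Its change, -0.96, ranged from -1.59 (without sample 0 of dog 4) to 0.19 (without sample 0 of dog 2) when 1 library was left out, and was 0.18 without dog 2. Insulin changes outside the 32 also reversed when 1 library was left out, as for ENSCAFG00000045017 (-0.27 to 0.48) and RUNX1T1 (-0.96 to 0.22).

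Between dogs, 17 members were called, against 42 by DESeq2 and 27 without the filter, and over all genes these settings called 458, 1277 and 793. Leaving out 1 library gave 10 to 19, and leaving out dog 2 or dog 4 gave 7 (79 and 190 over all genes). Leaving out dog 3 gave 10 (166 over all genes) and leaving out dog 1 gave 19 (540 over all genes). The cause of these shifts was not tested. Without the most abundant member the mean share of all counts held by the members was 0.161% in place of 0.196%. Depth limits the lowest members: the median member had 79.5 raw counts in its lowest library.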
